A study of Homo sapiens with 4 samples.

Results

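PDE9A, on the plus strand of chromosome 21 between positions 44073800 and 44195700 of hg19, carried the locus with the most LARP4-bound regions in the series. A locus here is a run of clusters on 1 strand with no gap over 5 kb, and a longer gene can be divided among several. Its members were all plus-strand intervals that overlapped this window of 121.9 kb. They were 52 of the 7153 regions in the authors' series-wide list, 92 of the 171755 clusters of replicate 1 and 115 of the 191899 clusters of replicate 2. LARP4 eCLIP was made in 2 replicates of HEK293, an established human embryonic kidney cell line, and 2 size-matched inputs, which had no antibody step, served as its reference. All 4 samples came from cells crosslinked with ultraviolet light, and neither a genotype change nor a treatment set them apart. The lists of both LARP4 eCLIP replicates and the series-wide list are labelled WT, for wild type. The LARP4 antibody itself was not checked by a knockout in the samples used here.

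PDE9A encodes a phosphodiesterase that hydrolyses cyclic GMP, the second messenger made by guanylate cyclases, with high affinity. By removing cyclic GMP the enzyme limits signalling through cyclic GMP-dependent protein kinase, and it is studied mostly in brain and heart. Its pre-mRNA is spliced in many ways, and the RefSeq gene table (gene ID 5152) lists 24 transcripts. LARP4 is a La-related protein of the cytoplasm that binds poly(A) and the poly(A)-binding protein and slows mRNA decay, so it is best known for contacts near the 3′ ends of mature mRNAs. In eCLIP, proteins are crosslinked to the RNA they touch, recovered with an antibody, and the attached RNA fragments are sequenced beside the input.

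The values are read as the authors' log2 fold of LARP4 eCLIP over input and the authors' −log10 p, 1 of each for every interval. The lists have no header, so both meanings were inferred from the numbers. A cluster is called enriched here at a log2 fold of at least 3, which is 8-fold, with a −log10 p of at least 3. The gene was chosen by its count of series-wide regions, which rests on these same folds and p-values in both replicates. The counts and folds below therefore describe it, and no test was made on them. Clusters of 1 library are not replicates, and whether the replicates came from separately grown cultures is stated only as biological replicates in the labels. How many reads each cluster rests on is unknown.

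LARP4 binding on PDE9A was crowded into the first part of the gene. All 52 regions lay between 44074367 and 44093952, a span of 19.6 kb that makes up 16.1% of the window. The first region began 567 bases after the window start and the last ended 20.2 kb after it. Of the 52, 28 had their midpoint in the first 10 kb, 23 in the next 10 kb and 1 in the 10 kb after that, and the other 10-kb bins held 0. The median distance from the window start was 9.68 kb.

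**Figure D1:**
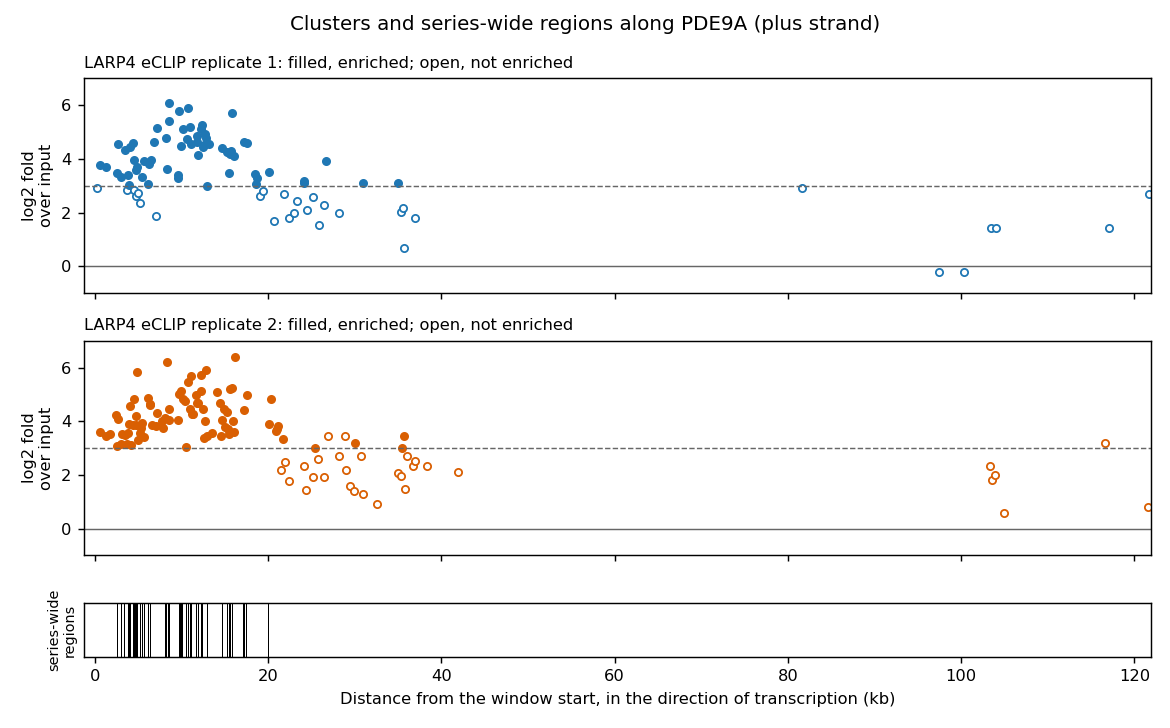
Log2 fold over input of every plus-strand cluster against distance from the window start (kb), replicate 1 above and replicate 2 in the middle, with the series-wide regions as black bars at the bottom. The dashed line is the log2 fold of 3 and filled points are enriched; enriched points stop within the first 40 kb, and none lies after the empty stretch of 39.7 kb.

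In each library taken alone, most clusters of the gene were enriched. Enriched clusters numbered 62 of 92 in replicate 1 (67.4%), where 5.01% of all clusters in the list were enriched. They numbered 84 of 115 in replicate 2 (73.0%), against 5.50% of all clusters. Because the gene was picked for its bound regions, these shares are no independent support for binding. PDE9A clusters had a median log2 fold of 3.48 in replicate 1 and 3.71 in replicate 2, against 1.28 and 1.30 over all clusters. With the fold limit raised to a log2 value of 4, 34 PDE9A clusters passed in replicate 1 and 45 in replicate 2, where 1.46% and 1.63% of all clusters did. In replicate 1 only 2 clusters lay below input, both at a log2 fold of −0.21, and in replicate 2 none did.

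From the 5′ end to the last region most clusters were enriched. Replicate 1 had 66 clusters there and 57 were enriched, and replicate 2 had 75, of which all 75 were enriched. The lowest log2 fold in this stretch was 1.88 in replicate 1, at 44080796 to 44080824, and 3.03 in replicate 2, at 44084339 to 44084423. Clusters covered 20.3% of the region span in replicate 1 and 27.2% in replicate 2. Bases covered in both replicates made up 16.6% of it, and bases covered in either made up 31.0%. Counted by midpoint, replicate 2 had 0 clusters from 18 to 20 kb and replicate 1 had 5, of which 3 were enriched.

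The regions were narrow and closely spaced. Their widths ran from 17 to 203 bases with a median of 70, against a median of 64 over the whole list. The median gap between neighbouring regions was 132 bases, with a middle range of 47 to 336.5, and 23 of 51 gaps were under 100 bases. Only 4 gaps exceeded 1000 bases, and the widest, 2376 bases, separated the last region from the one before it. One pair of regions touched, so that merging left 51. The regions covered 4046 bases, or 20.7% of their span.

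Enrichment over input was higher from 8 to 18 kb than in the first 8 kb, a division made after the profile had been seen. The 30 regions that started between 8 and 18 kb had a mean log2 fold of 4.65 in replicate 1 and 4.57 in replicate 2, or 4.61 ± 0.06 (SD, n = 2). The 21 regions that started in the first 8 kb had 3.57 in replicate 1 and 3.96 in replicate 2, or 3.76 ± 0.28 (SD, n = 2). Both libraries had the higher mean in the 8 to 18 kb stretch, but single regions overlapped. Values in the 8 to 18 kb stretch went down to the limit of 3, and values in the first 8 kb reached 5.84. In the authors' list 24 of the 30 regions reached a log2 fold of 4, as did 6 of the 21. The median −log10 p differed in the same direction, at 13.9 for the 30 regions and 7.82 for the 21. No test was made, because the values had set the division.

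The clusters followed the same profile as the regions. The region values were taken from these clusters, so this is no separate support. In replicate 1 all 33 clusters that started between 8 and 18 kb were enriched, with a median log2 fold of 4.59, and 20 of 27 were enriched in the first 8 kb, with a median of 3.57. In replicate 2 all 42 and all 32 were enriched, with medians of 4.47 and 3.83.

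**Figure D2:**
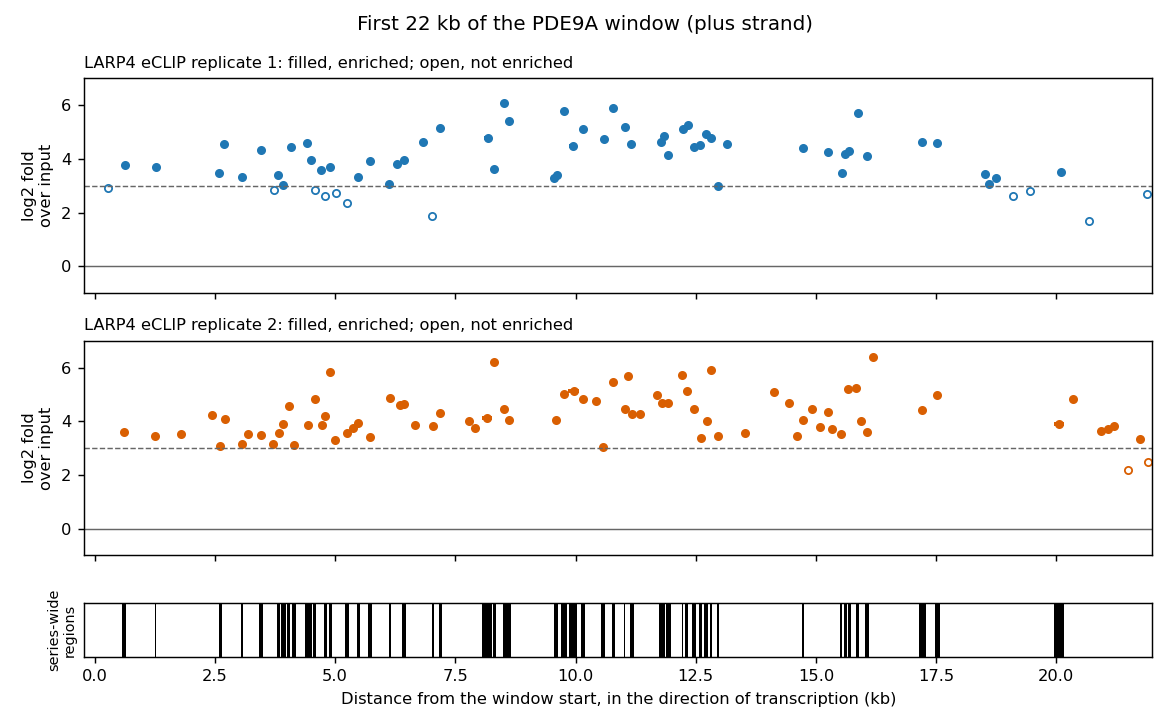
The first 22 kb of the window at higher resolution, with log2 fold over input for replicate 1 (top) and replicate 2 (middle) and the series-wide regions (bottom), against distance from the window start (kb). Open points below the dashed line at a log2 fold of 3 appear in the first 8 kb of replicate 1 and again after 18 kb, while every point from 8 to 18 kb is filled.

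Ranked by the lower of the replicate values, the top 10 regions all lay from 9.70 to 17.6 kb into the window, and none was under 22.1-fold over input in either library. The highest, 70 bases at 44084548 to 44084617, had log2 folds of 5.89 in replicate 1 and 5.47 in replicate 2, a mean of 5.68 ± 0.30 (SD, n = 2). Its lower value stands for 44.3-fold over input. The next, 58 bases at 44089637 to 44089694, had 5.73 and 5.24 in replicates 1 and 2, and the 71 bases from 44086076 to 44086146 had 5.28 and 5.14. A region of 24 bases just before it, at 44086017 to 44086040, had 5.11 and 5.74. The means of these 4 ran from 5.21 to 5.68 with SDs from 0.10 to 0.44, and their order was not tested.

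The remaining 6 of the 10 were spread among them. At 44083503 to 44083612 the log2 folds were 5.77 in replicate 1 and 5.02 in replicate 2, with −log10 p values of 28.8 and 33.1. At 44083914 to 44083997 they were 5.11 and 4.82, and at 44086589 to 44086648 they were 4.79 and 5.92, which gave the largest SD of the 10, 0.80. The region at 44085537 to 44085653 had the closest replicates, at 4.64 and 4.70. The regions at 44091272 to 44091382 and 44084802 to 44084835 completed the 10, with means of 4.79 ± 0.29 and 4.83 ± 0.52 (SD, n = 2).

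The ends of the bound stretch were lower. The first region, 44074367 to 44074455, had a log2 fold of 3.78 in replicate 1 and 3.59 in replicate 2 (3.68 ± 0.13, SD, n = 2). The last, 194 bases at 44093759 to 44093952, had 3.51 and 3.92 (3.71 ± 0.29, SD, n = 2). Both were enriched in both libraries. The 5 regions with midpoints from 2 to 4 kb had a mean log2 fold of 3.47. The 2 regions from 0 to 2 kb had 3.63, and the difference was not tested.

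The 3 weakest regions by the lower replicate value all lay in the first 8 kb. They missed the log2 fold limit of 3 in replicate 1 alone, but their replicate 2 values were also under that library's median of 4.23 over regions. At 44080815 to 44080862 replicate 1 had a log2 fold of 1.88 and replicate 2 had 3.82. At 44079003 to 44079078 it was 2.35 and 3.57, and at 44078563 to 44078620 it was 2.62 and 4.18. Together with 44078335 to 44078409, at 2.84 and 4.84, these were the regions without an enriched cluster in replicate 1. In replicate 2 all 52 regions had an enriched cluster, and 48 (92.3%) had one in both libraries. Over all 7153 regions of the list 74.9% had one in both, and the list itself holds only log2 folds of at least 3, so a high share follows from its making.

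Averaged over the 52 regions, the libraries gave close values. Replicate 1 had a mean log2 fold of 4.19 and replicate 2 had 4.31, or 4.25 ± 0.09 (SD, n = 2), and 25 regions were higher in replicate 1 and 27 in replicate 2. Single regions scattered more. The SD of 1 library's value at a region was 0.69, which gives a mean of 2 libraries an error of 0.49, against an SD of 0.71 among the region means. Neighbours in the order of regions were not tested against each other. At 38 regions (73.1%) the libraries were within 1 log2 unit, and the widest gap was 2.56, at 44082077 to 44082142, with 3.64 in replicate 1 and 6.20 in replicate 2. Across the 52 regions Pearson's r between libraries was 0.36 and Spearman's rho 0.40, a description over neighbouring regions of 1 gene in which 51 clusters of each replicate stand behind the 52 values.

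**Figure D3:**
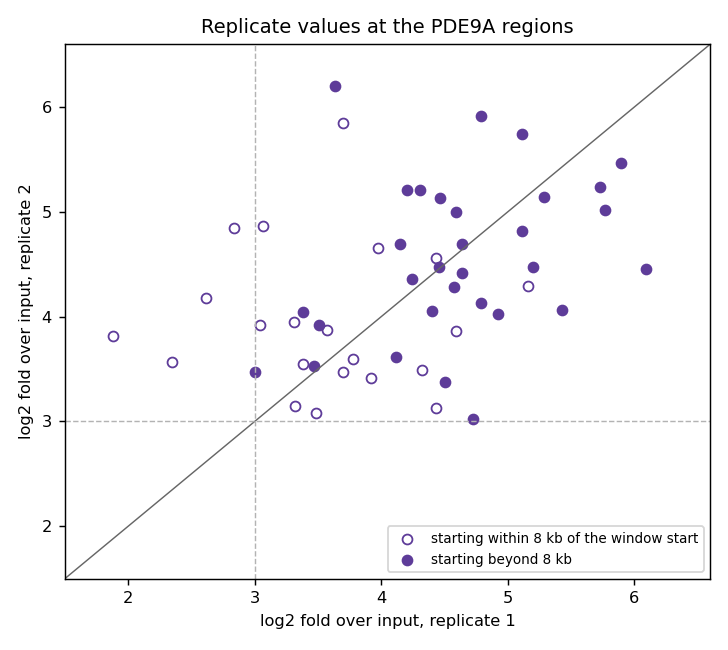
Log2 fold over input in replicate 2 against replicate 1 at the 52 regions, with the line of equal values and dashed lines at a log2 fold of 3. Open points start in the first 8 kb and filled points beyond it; the 4 points left of the vertical dashed line are the regions that were not enriched in replicate 1.

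Over all clusters of the gene, 70 replicate 1 clusters overlapped a replicate 2 cluster. Both libraries were enriched at 50 of these, only replicate 1 at 4, only replicate 2 at 7 and neither at 9. Their log2 folds had a Pearson's r of 0.64 and a Spearman's rho of 0.65. Within the span of the regions alone, over 56 clusters, they were 0.41 and 0.45. Of the bases covered by replicate 1 clusters, 73.7% were also covered in replicate 2, and 51.3% of the replicate 2 bases were covered in replicate 1.

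Replicate 2 had more enriched clusters with no counterpart. It held 30 such clusters, 22 of them up to the last region, and replicate 1 held 8, with 7 up to the last region. The cluster with the highest log2 fold of either library on this gene was among them. It lay at 44089951 to 44090043, with a log2 fold of 6.40 and a −log10 p of 23.8 in replicate 2, and no replicate 1 cluster overlapped it. Another, at 44084839 to 44084925, had 5.70 and a −log10 p of 28.0. The median log2 fold of enriched replicate 2 clusters was 3.83 without a counterpart and 4.10 with one, and their median widths were 52 and 73 bases. None of the 30 was in the series-wide list, in which every PDE9A region overlapped a cluster of each replicate.

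Between the last region and position 44115714, a stretch of 21.8 kb, clusters went on with lower folds and lower −log10 p. Replicate 1 had 19 clusters there with a median log2 fold of 2.18, of which 5 were enriched. Replicate 2 had 34 with a median of 2.40, of which 9 were enriched. They covered 4.58% and 8.87% of the stretch. No series-wide region lay in it, although 4 of the 5 enriched replicate 1 clusters overlapped a replicate 2 cluster. The adjoining clusters at 44097929 to 44097968 and 44097969 to 44097994 met the same one, with a log2 fold of 2.33, and those at 44104757 to 44104838 and 44108775 to 44108856 met others, with 1.27 and 2.08.

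At like folds the −log10 p was smaller after the last region than before its end. Clusters of replicate 1 with a log2 fold between 3 and 4 had a median −log10 p of 3.46 after the last region (5 clusters) and 6.63 up to it (23 clusters). In replicate 2 the medians were 3.67 (11 clusters) and 9.88 (31 clusters). One log2 fold, 3.47, recurred to the last digit compared at 6 replicate 2 clusters, with −log10 p values from 2.48 to 9.67. The fold alone therefore does not give the support behind a cluster, and the reads behind either value are not in the lists.

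After 44115714 no plus-strand cluster was present in either replicate for 39.7 kb, up to 44155418. The rest of the gene, which includes its 3′ end, held 7 clusters in replicate 1 and 6 in replicate 2, and none was enriched. Their log2 folds ran from −0.21 to 2.92 in replicate 1 and from 0.59 to 3.18 in replicate 2, with −log10 p values of at most 1.49 and 1.94. The cluster nearest the 3′ end was at 44195413 to 44195448 in replicate 1, with a log2 fold of 2.70 and a −log10 p of 1.22. It overlapped a replicate 2 cluster at 44195404 to 44195438, with 0.82 and 0.41. Both libraries thus had signal at this end of the gene without strong enrichment. Where exons, introns and untranslated regions fall among these intervals was not analysed here, because no annotation of hg19 was used.

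**Figure D4:**
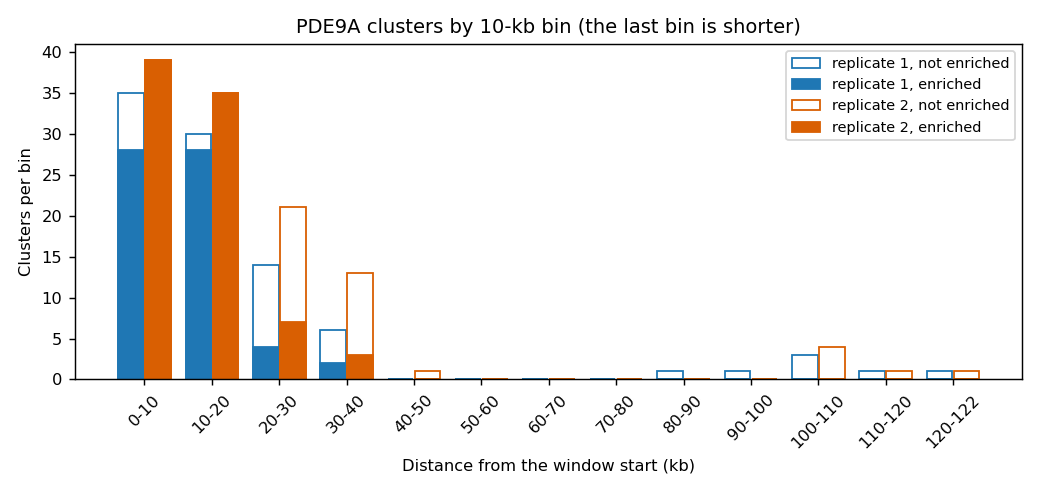
Number of plus-strand clusters in each 10-kb bin of the window (the last bin is shorter), for replicate 1 and replicate 2, with the enriched part of each bar filled. The first bin holds 28 enriched clusters of 35 in replicate 1 and 39 of 39 in replicate 2, and enriched clusters are absent from 40 kb on.

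Within the window all clusters were on the plus strand, and the enriched ones stopped well before its end. On the minus strand of the same window both replicates and the series-wide list had 0 clusters. RefSeq's tables for GRCh38 list PDE9A-AS1, LOC101928255 and LOC107985504, all long noncoding RNAs, as overlapping PDE9A. The strand and hg19 position of these RNAs were not analysed here, so plus-strand clusters are assigned to PDE9A by position alone. The lists hold only intervals called as clusters, so a count of 0 gives no limit on the signal. The nearest plus-strand cluster before the gene ended at 44001313 in replicate 1 and 44000336 in replicate 2, 72.7 and 74.0 kb from the first PDE9A cluster of each. After the gene the next ones began at 44301078 in replicate 1, with a log2 fold of −0.89, and at 44313402 in replicate 2, with 3.48. The replicate 2 cluster had a −log10 p of 19.1 and was enriched. In the order of the RefSeq table, which is for GRCh38, the nearest protein-coding genes are SLC37A1, an exchanger of glucose 6-phosphate for phosphate, before PDE9A and WDR4, a subunit of a tRNA methyltransferase, after it.

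In windows of the same length on either side, enriched clusters were fewer than on PDE9A. The choice of the gene by its number of bound regions made this likely beforehand. The plus-strand window just before PDE9A held 22 clusters in replicate 1 and 30 in replicate 2, with 0 enriched in each and highest log2 folds of 2.70 and 2.33. The plus-strand window just after PDE9A held 4 and 5 clusters, of which 0 and 1 were enriched (20.0% in replicate 2). On the minus strand the window after the gene held 50 and 56 clusters, 5 and 4 of them enriched (10.0% and 7.14%, against 5.01% and 5.50% of all clusters), and 1 series-wide region.

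PDE9A made up 31.9% of the 163 series-wide regions on chromosome 21. Of the 217 and 263 enriched clusters of this chromosome in replicates 1 and 2, the gene held 62 and 84. The locus with the next largest number on the chromosome had 14 regions.

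By fold the PDE9A regions were in the upper part of the list, and by −log10 p in the lower part. Their median authors' log2 fold was 4.40 against 3.65 for all 7153 regions, and 30 of 52 (57.7%) reached 4, against 30.5% of the list. The highest, 5.88, ranked 67 in the list, and 17 of the 52 were within its highest 10%. Their median −log10 p was 9.92 against 13.9 for all regions, and their highest, 38.4, ranked 1326. Wider PDE9A regions had higher −log10 p (Spearman's rho 0.65 over 52 regions) but hardly higher folds (0.15), a description within 1 gene.

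Of the loci defined above, 136 held at least 10 regions. The PDE9A locus, 44074047 to 44115714, ranked 1 by number of regions and by bases in regions, 9 by the span of its regions and 35 by mean log2 fold. Its regions were sparser than is usual for these loci, at 2.65 per kb of span against a median of 4.09 in the other 135, which spanned a median of 3.28 kb. The enriched share of its clusters, 72.9% in replicate 1 and 77.1% in replicate 2, ranked 58 and 63, against medians of 67.7% and 73.7% in the other loci. Its regions also lay closer to the 5′ end of the locus. The mean position, from 0 at the 5′ to 1 at the 3′ end of the locus, was 0.22 against a median of 0.61, and PDE9A ranked 13 from the 5′ side. Only 41 of the 136 loci had a mean position under 0.5. These are not positions along genes. The PDE9A locus ends before the 3′ end of the gene, and the other loci were not matched to genes. Along the whole PDE9A window the mean position of the regions was 0.08. These ranks are descriptions, and the gene is not shown to be unlike the others by a test.

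**Figure D5:**
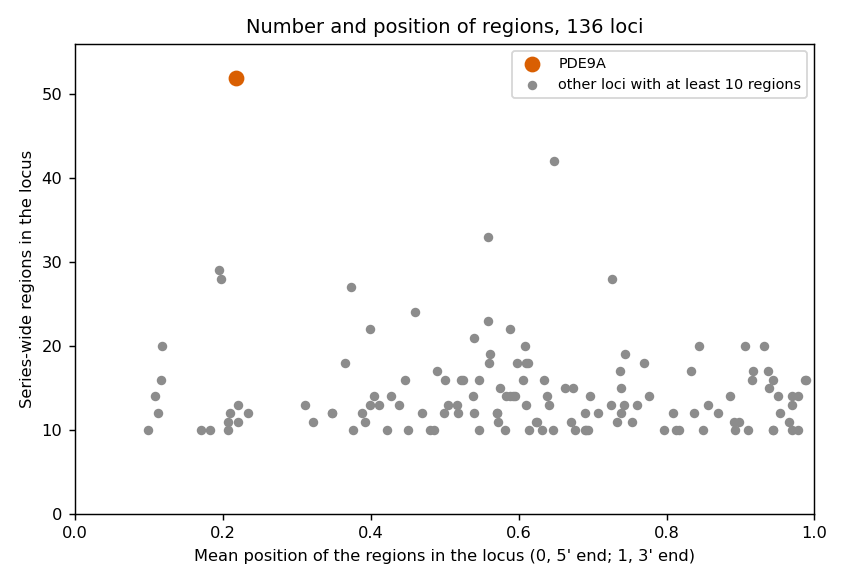
Number of series-wide regions against the mean position of those regions in the locus, for the 136 loci with at least 10 regions. PDE9A, at 52 regions and a position of 0.22, is the highest point and lies on the 5′ side.

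The 3 loci with the next largest numbers of regions differed from PDE9A in spread, or in the width and spacing of their regions. At chromosome 22, plus strand, 47507754 to 47571113, 42 regions spread over 61.4 kb with a mean position of 0.65. The locus had a median region width of 75.5 bases, a median gap of 304 bases and a mean log2 fold of 3.93 ± 0.03 (SD, n = 2). A second locus with 10 regions began before it, at 47387329 on the same strand, and whether both belong to 1 gene was not analysed here. If they do, the lead of PDE9A in number of regions would not hold for genes. Its rank is therefore among loci only. At chromosome 17, plus strand, 49230948 to 49249054, 33 regions had a median width of 20 bases and a median gap of 0, so that many were adjoining pieces, and covered 991 bases. At chromosome 19, minus strand, 49110193 to 49122434, 29 regions had a median width of 15 bases, also with a median gap of 0, and covered 613 bases. The PDE9A regions, with a median width of 70 bases and 1 touching pair, were for the most part separate intervals. By median width and median gap, so were those of the chromosome 22 locus that held 42 regions.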

How the data were processed

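LARP4 eCLIP and size-matched input were made from HEK293 cells in 2 replicates each. Per the labels' protocols reads went through the submitters' eCLIP pipeline. Per the submitters' processing notes UMI-tools 1.0.0, cutadapt 1.14, STAR 2.7.6a, SAMtools 1.6 and hg19 were used. Steps not given in the sources used here include peak calling, depth scaling and the merging of replicates. Each interval the authors deposited has a −log10 p of at most 400 and a log2 fold over input; without a header, both meanings were inferred from the numbers themselves. Groups came from sample titles.

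Starts were made 1-based. Intervals sharing at least 1 base on 1 strand overlap, and a region takes the cluster with the longest overlap. Means and SDs are over the 2 replicates. The text names the 10 regions with the highest lower value, the first, the last and the 3 lowest, PDE9A, and the 3 next loci; other intervals were named after their values were seen. The gene, thresholds and rules were chosen with earlier results of these data known. No test was run. Interval matching was tested on simulated data. Alternatives covered thresholds, overlap, merging, locus gaps and leaving out a replicate. Computations ran in Python 3.11.15 with pandas 2.3.3, numpy 2.4.6 and SciPy 1.17.1, and figures in matplotlib 3.10.9. No hg19 sequence or annotation was used, and no sequence is shown.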

Additional observations from a re-analysis of the deposited data

How the results depend on the processing

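Of 28 alternatives, 21 kept their value by the measure used (counts within 1.5 times, means within 1 SD of the replicates, r to 2 decimals) and 7 did not. Some could not have moved: with 2 replicates, either one left out stays within 1 SD of the mean, and the minus strand has 0 clusters whatever limit is set. At a log2 fold of at least 4, enriched clusters fell to 34 in replicate 1 and 45 in replicate 2, the regions to 30, and the regions enriched in both replicates to 25. With at least 50% of the shorter cluster overlapping, r was 0.65. The median distance from the window start was 10.7 to 10.9 kb when taken from the enriched clusters of a single replicate. The mean log2 fold over regions was 4.19 to 4.31 with either replicate left out. PDE9A ranked 1 by number of regions with locus gaps of 1, 5 and 20 kb and with touching regions merged. The choice of the longest-overlap cluster alone, added after seeing the data, gave 48 regions enriched in both replicates. With an overlap of at least 50% of the region, which was planned, 43 were enriched in both. No paired analysis was possible because the inputs enter only as the denominator of the authors' folds. Read depth is unknown, so no interval could be given for a single fold.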

Other observations

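The values of the PDE9A clusters repeat. In replicate 1, 38 of 92 clusters shared their log2 fold with another cluster of the gene, to 9 decimals, and in replicate 2, 37 of 115 did. In each library 18 clusters shared both the log2 fold and the −log10 p with another. In replicate 2, 3 clusters had a log2 fold of at least 3 but missed the limit on −log10 p, and in replicate 1 none did.

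The authors' log2 fold of a region lay between the values of its replicate clusters at 42 of the 52 PDE9A regions, with a median difference of 0.03 from their mean.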
